A study of Mus musculus with 2 samples.

Results

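Mir103-1, Mir103-2 and Mir107 are 3 microRNA genes that sit inside introns of pantothenate kinase genes, and they were followed in the calf muscle gastrocnemius of female mice. They were taken as the rows of the deposited files whose Ensembl identifiers carry these names in GENCODE mouse release M21, which gives 3 of the 2202 microRNA genes listed. Small RNA under 30 nt was sequenced from 1 group of mice of the B6CASTF1/J strain aged 2 months, in 2 libraries that the labels call replicates 2 and 1. Each library has its own numbered female in the labels, but the donor code is shared, so whether the spread between libraries is one between animals rests on that numbering. There is no treatment and no second genotype, and every difference given here is one between these libraries.

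MicroRNAs are short RNAs cut from a hairpin precursor, and each guides silencing of messenger RNAs that pair with its seed, bases 2 to 8. A hairpin can release a mature RNA from its 5p arm and one from its 3p arm, and for miR-103 and miR-107 the 3p RNA is the one known as the main product. Pantothenate kinases catalyse the first committed step of coenzyme A synthesis, and their paralogous genes Pank1, Pank2 and Pank3 carry these hairpins in vertebrates. In mice, miR-103 and miR-107 are known for lowering insulin sensitivity in liver and fat, with caveolin-1, a protein of membrane pits near the insulin receptor, as a described target.

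The 3p RNAs of all 3 genes carry 1 seed, GCAGCAU, which no other mature RNA among the 1674 distinct ones in the RefSeq table has. They are shown first because their near identity bears on every count below. The sequences are from RefSeq on GRCm38.p6, all 3 genes matched, and capitals mark the seed.
mmu-miR-103-3p: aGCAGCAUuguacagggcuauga
mmu-miR-107-3p: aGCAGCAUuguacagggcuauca
Mir103-1 and Mir103-2 make the same 23 nt RNA from this arm. Mir107 makes one that differs from it at a single base, G22C, counted from 1 at the 5′ end with the base of miR-103 first. The 5p RNAs share a seed among themselves, GCUUCUU, and differ a little more between the genes.
mmu-miR-103-1-5p: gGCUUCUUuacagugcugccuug
mmu-miR-103-2-5p: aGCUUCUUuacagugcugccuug
mmu-miR-107-5p: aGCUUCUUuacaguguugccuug
Here Mir103-1 differs from Mir103-2 by G1A, and Mir103-2 differs from Mir107 by C16U.

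The hairpins show how far the likeness runs beyond the mature RNAs, with the 3p RNA in capitals.
Mir103-1: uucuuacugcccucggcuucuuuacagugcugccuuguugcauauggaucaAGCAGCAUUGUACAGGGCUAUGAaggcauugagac
Mir103-2: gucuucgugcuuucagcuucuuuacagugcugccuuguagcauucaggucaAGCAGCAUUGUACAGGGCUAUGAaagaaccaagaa
Mir107: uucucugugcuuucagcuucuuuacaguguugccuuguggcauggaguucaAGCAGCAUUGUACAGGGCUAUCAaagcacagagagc
Mir107 and Mir103-2 were identical at 83.9% of aligned positions, Mir107 and Mir103-1 at 80.5%, and Mir103-1 and Mir103-2 at 80.2%. The longest run without a difference covered 27 bases between Mir103-1 and Mir103-2, against 24 bases between Mir107 and either of them. A read that starts at the first base of the 3p RNA has to be 25 nt long before Mir103-1 and Mir103-2 can be told apart, which is longer than the mature RNA. For Mir107 the same read has to reach 22 nt, within the mature RNA by 1 base. On the 5p arm, 16 nt are enough for Mir107 and for Mir103-2, and 10 nt for Mir103-1. These lengths hold for exact matches to the hairpins in the RefSeq table, and the rest of the genome was not searched.

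**Figure D1:**
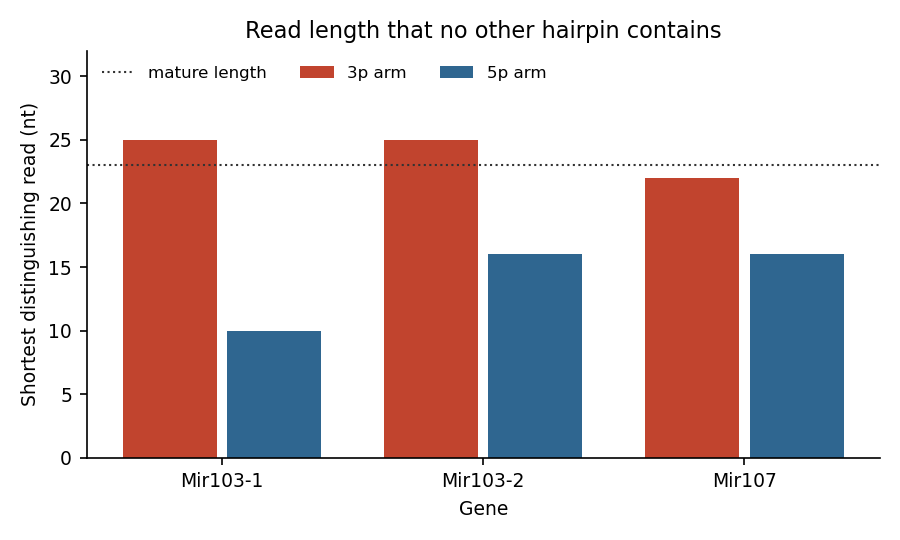
The bars give the shortest read in nt, from the first base of each mature RNA on, that occurs in no other hairpin of the table, for the 3p arm (red) and the 5p arm (blue) of each gene, and the dotted line is the mature length. The 3p bars of Mir103-1 and Mir103-2 stand at 25 nt, above the mature length of 23 nt, and that of Mir107 stands at 22 nt, just below it.

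The 3 hairpins lie in the intron of the same number in a 7-exon transcript of their host genes. In the mm10 assembly, Mir103-1 (ENSMUSG00000065553.1) lies on the plus strand of chromosome 11 from 35782396 to 35782481. Mir103-2 (ENSMUSG00000065563.1) lies on the plus strand of chromosome 2 from 131288052 to 131288137. Mir107 (ENSMUSG00000065594.1) is on chromosome 19, on the minus strand, from 34820687 to 34820773. Mir103-1 is in Pank3, Mir103-2 in Pank2 and Mir107 in Pank1, each on the strand of its host, and no transcript of the hosts has an exon over the hairpin. Each host has a protein-coding transcript with 7 exons, and in it the hairpin is in intron 5. That intron is 1740 bp long in Pank3, 5801 bp in Pank2 and 7282 bp in Pank1. The hairpin starts 688 bp after the upstream exon in Pank3, 454 bp in Pank2 and 326 bp in Pank1. It ends 966, 5261 and 6869 bp before the downstream exon in the same order. Mir103-2 and Mir107 thus lie near the 5′ end of the intron, and Mir103-1 lies nearer its middle. Host messenger RNA was not measured in these libraries.

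**Figure D2:**
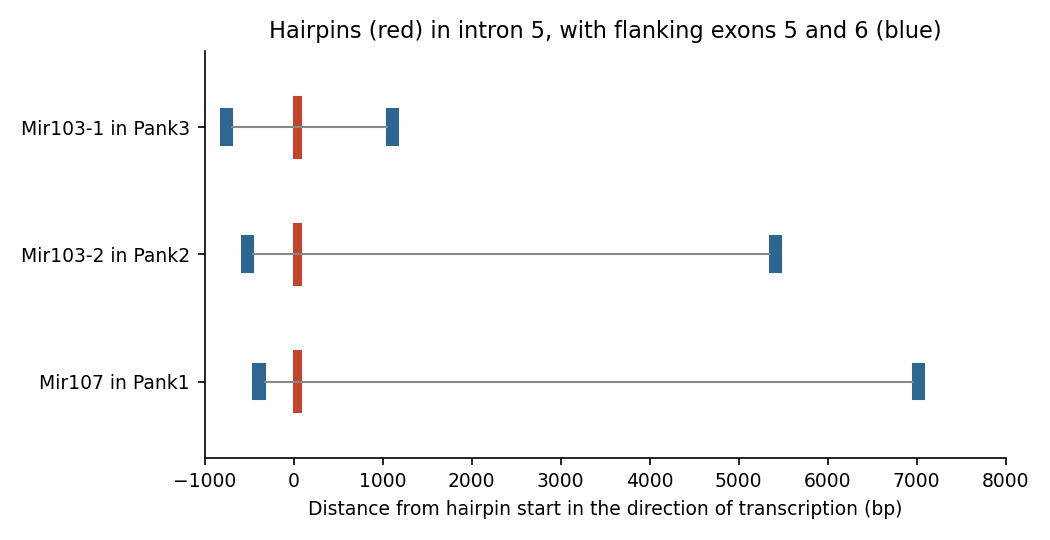
Each line is intron 5 of a host transcript, drawn to scale in bp from the hairpin start in the direction of transcription, with the hairpin in red and the flanking exons in blue. The hairpin of Mir107 begins 326 bp after an exon, that of Mir103-2 454 bp and that of Mir103-1 688 bp, while the introns differ in length from 1740 to 7282 bp.

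Counts are for reads on a gene's own strand, and only reads placed at 1 position enter a gene. The library of replicate 2 has 14377558 reads in all and that of replicate 1 has 9410562, and microRNA genes took 2291821 and 1950204 of these. Those placed at several positions were 72.3% in replicate 2 and 70.1% in replicate 1, and the files do not say from which genes they came. The values below are in CPM, counts scaled to 1000000 counts in microRNA genes, so that 3 counts equal 1.31 CPM in replicate 2 and 1.54 CPM in replicate 1. Intervals are exact 95% Clopper-Pearson intervals, which leave out all error but that of counting. PCR copies are not separate molecules, so even the counting error may be larger than the intervals show. The tissue label was checked on markers, and all 9 microRNAs listed for striated muscle had at least 10 counts in each library, with 4.65% and 2.79% of counts in replicates 2 and 1. Most of these were of Mir206, with 96104 and 52086 counts in replicates 2 and 1. Mir499 had 5722 and 615 counts, and Mir208b had 1745 and 238. The last 2 were called in the comparison below, where 11.9% of the genes tested were called between the libraries. The 5 neuron genes found had 0 counts in both, but Mir9-1, Mir9-2 and Mir9-3 among them have both mature RNAs copied whole in another hairpin, so this list is no check of the tissue. Smooth muscle, with Mir143 and Mir145a, took 9.73% in replicate 2 and 20.3% in replicate 1. Reads placed at several positions enter none of these shares, and how many of them came from either list was not tested. The shares therefore do not rank striated against smooth muscle.

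Nearly all counts of the 3 genes came from Mir107. Its counts were 1165 in replicate 2 and 980 in replicate 1. That is 508 CPM (interval 480 to 538) in replicate 2 and 503 CPM (interval 472 to 535) in replicate 1, a mean of 505 ± 4.11 CPM (SD, n = 2). The libraries lay within each other's intervals, and the SD was 0.814% of the mean. By mean CPM, Mir107 stood at position 78 of the 278 genes with at least 10 counts in each library, called detected here.

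Mir103-2 was far lower and Mir103-1 was at the floor. For Mir103-2 there were 22 counts in replicate 2 and 26 in replicate 1, or 9.60 CPM (interval 6.02 to 14.5) and 13.3 CPM (interval 8.71 to 19.5), with a mean of 11.5 ± 2.64 CPM (SD, n = 2). It stood at position 250 of the 278 detected genes. For Mir103-1 there were 2 counts in replicate 2 and 1 in replicate 1, or 0.873 CPM (interval 0.106 to 3.15) and 0.513 CPM (interval 0.013 to 2.86), both under the level of 3 counts. The order from Mir107 through Mir103-2 to Mir103-1 was the same in both libraries, and in neither did the intervals of the genes overlap. The hairpins are 86, 86 and 87 bases long, so the counts were compared without scaling by length. Reads of miR-103-3p up to 24 nt from the first base on match both Mir103 hairpins, so these counts are not levels of miR-103. Reads of miR-107-3p shorter than 22 nt from the first base on also match another hairpin, so the counts of Mir107 may leave out part of miR-107. How many reads of miR-103 or miR-107 are among those that aligned to several places was not tested, and the files do not divide a gene's counts by arm.

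**Figure D3:**
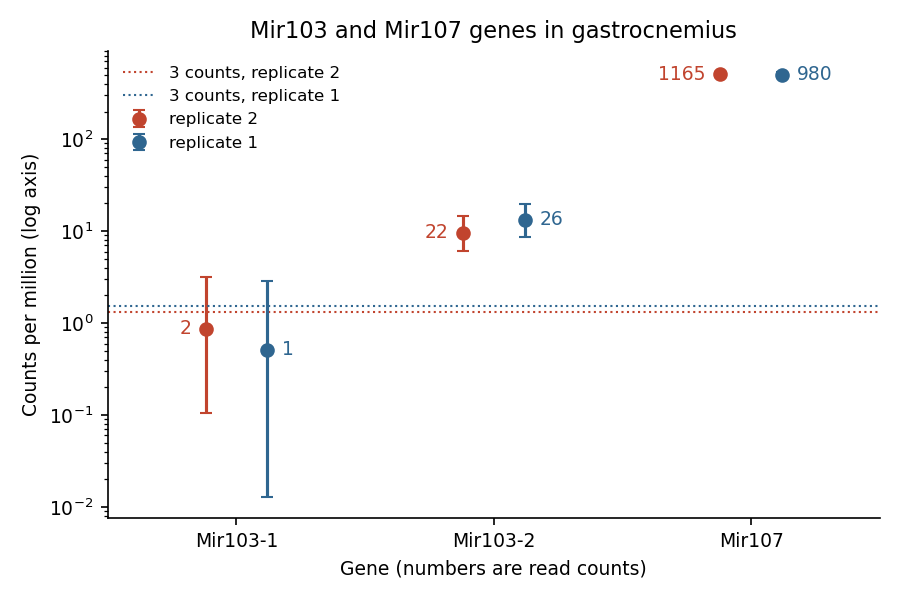
Points are CPM on a log axis for each gene in replicate 2 (red) and replicate 1 (blue), bars are exact 95% intervals, numbers are counts and dotted lines mark 3 counts in each library. Mir107 sits at 508 and 503 CPM, Mir103-2 at 9.60 and 13.3 CPM, and Mir103-1 below the dotted lines.

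Together the 3 genes held 0.0519% of counts in replicate 2 (interval 0.0490 to 0.0549) and 0.0516% in replicate 1 (interval 0.0485 to 0.0549), a mean of 0.0518% ± 0.000173 (SD, n = 2). Mir107 made up 98.0% of their 1189 counts in replicate 2 and 97.3% of their 1007 counts in replicate 1. Mir103-2 made up 1.85% and 2.58%, and Mir103-1 0.168% and 0.0993%. The counts of Mir107 were 53.0 times those of Mir103-2 in replicate 2 (exact 95% interval 34.8 to 84.8) and 37.7 times in replicate 1 (interval 25.6 to 58.0). A 3p read has to reach 25 nt to be told as one of Mir103-2, against 22 nt for Mir107. These shares and ratios are therefore of counts placed at 1 position, and not of miR-103 and miR-107. No difference in makeup between the libraries was found beyond counting error in two-sided Fisher's exact tests adjusted over the 3 genes. The adjusted p of these tests was 0.483 for Mir107, 0.483 for Mir103-2 and 1 for Mir103-1. The tests of Mir107 and Mir103-2 are not separate, because nearly all counts that are not of the one are of the other. With 2 and 1 counts, Mir103-1 could not have reached a p under 0.05, so its test shows nothing. No read was counted on the strand opposite to any of the 3 genes in either library, so the counts of either strand are the same numbers.

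The libraries were then compared over the whole table with a two-sided exact binomial test on scaled library sizes, which compares these libraries and not conditions. A gene was called at an adjusted p under 0.05 and at least a 2-fold difference, and 33 of the 278 detected genes were called, or 11.9%. That number rests on counting error alone, and edgeR's exact test called 7 genes (2.52%) at the dispersion estimated from these libraries and 22 (7.91%) at an assumed coefficient of variation of 0.2. The estimated dispersion takes the differences under test as spread, so a gene that is not called with it shows little. Of the 3 genes, 2 were tested and 0 were called, and 2 genes are too few to set apart from that share. Mir107 had a log2 ratio of replicate 2 over replicate 1 of 0.051 (SE 0.063 from counting), or 1.04-fold, with an exact 95% interval of 0.951 to 1.13 (adjusted p = 0.513, unadjusted p = 0.423). Among the detected genes, 16 had a smaller log2 ratio in size than Mir107, and 154 (55.4%) had an adjusted p under 0.05 before the fold minimum was applied, Mir107 and Mir103-2 not among them. Mir103-2 was at a log2 ratio of -0.43 (SE 0.41, adjusted p = 0.407, unadjusted p = 0.313), with an interval for the ratio of 0.398 to 1.35. At 22 and 26 counts, a 2-fold lower level in replicate 2 lies within that interval, so the depth shows little for this gene. Mir103-1 missed the minimum of 10 counts and was not tested, and no ratio is given for it.

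**Figure D4:**
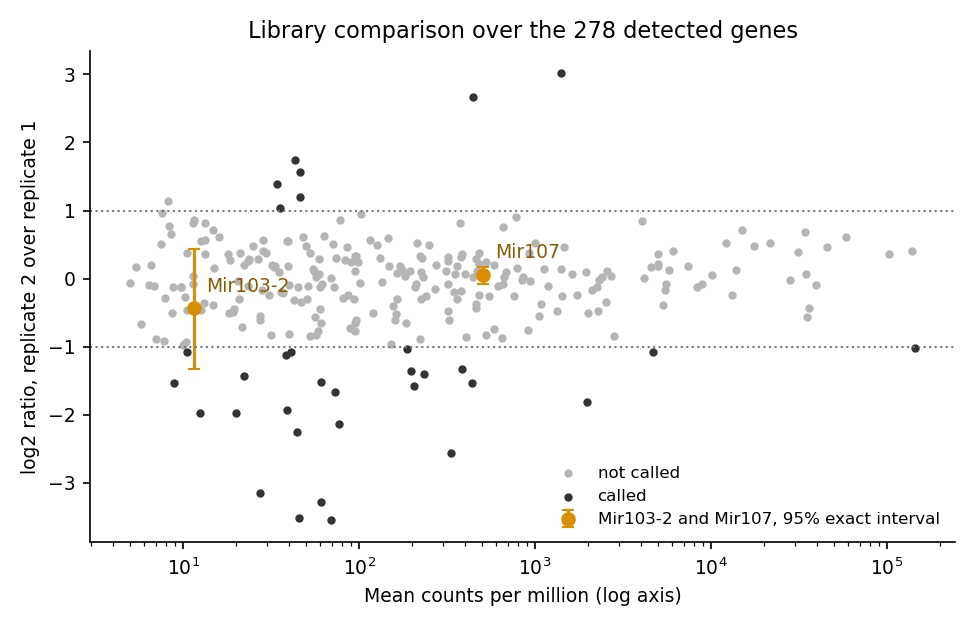
Each point is a detected gene, with its mean CPM on a log axis and its log2 ratio of replicate 2 over replicate 1, called genes in black, others in grey, and Mir103-2 and Mir107 in orange with exact 95% intervals. Mir107 lies at 0.051 with a narrow interval and Mir103-2 at -0.43 with a wide one, both between the dotted lines at a 2-fold difference.

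The genes whose levels over the 2 libraries lay nearest to those of Mir107, by distance of log2(CPM + 1), were Mir328, Mir181c and Mir676, with means of 524 ± 54.4, 480 ± 41.04 and 467 ± 16.4 CPM (SD, n = 2 each). Mir328 and Mir181c are also its neighbours above and below in the order of all detected genes. The range of each of these neighbours over the libraries overlapped that of Mir107, and the range of Mir676 did not. Nearest to Mir103-2 were Mir679, Mir130b and Mir666, at 10.5 ± 2.53, 12.7 ± 3.11 and 10.2 ± 1.50 CPM (SD, n = 2 each), all with ranges that overlapped its own. With 2 libraries, this likeness is little more than a similar abundance.

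Mir103 and Mir107 belong to a wider group of microRNAs that share the letters AGCAGC near the 5′ end and are known as the group of miR-15 and miR-107. AGCAGC occupies bases 1 to 6 of miR-103-3p and miR-107-3p and bases 2 to 7 of the others, so their seeds are offset by 1 base. Of the 1674 distinct mature RNAs, 13 (0.777%) have these letters in either place, searched on the RNA strand itself. Among them, miR-6342, miR-6353 and miR-6419 are outside the list of the group used below, so its shares and order leave them out. The following are shown to make that offset visible, with seeds in capitals.
mmu-miR-15a-5p: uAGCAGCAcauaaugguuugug
mmu-miR-16-5p: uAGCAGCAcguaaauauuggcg
mmu-miR-195a-5p: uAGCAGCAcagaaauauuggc
mmu-miR-322-5p: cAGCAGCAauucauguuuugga
mmu-miR-503-5p: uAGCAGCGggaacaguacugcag
miR-15 and miR-16 are known as restraints on the cell cycle, and miR-322 and miR-503 are known from muscle cell differentiation. The list named 10 other genes, of which 9 were in the files and 8 were detected, and Mir195b was listed at 0 in both libraries.

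By counts placed at 1 position, Mir107 was in the middle of the wider group and the Mir103 genes were at its low end. Mir103-1, Mir103-2, Mir16-1 and Mir16-2 each have 1 mature RNA copied whole in another hairpin, so this order is not one of mature RNA levels. Of the counts of the group with the 3 genes included, the 3 genes held 2.83% in replicate 2 and 2.84% in replicate 1. Mir322 led with 7798 CPM in replicate 2, against 7025 CPM in replicate 1, and Mir195a had 5274 and 4757 CPM. Mir15a followed at 2184 and 2844 CPM. The detected genes with lower levels ran down to Mir503, at 82.5 CPM in replicate 2 and 59.5 CPM in replicate 1. In the order of mean CPM, Mir107 came after Mir497, at 786 ± 44.2 CPM, and before Mir16-2, at 320 ± 79.4 CPM (SD, n = 2 each), and its range over the libraries overlapped neither. Of the 8 detected genes, 0 were called between the libraries by the exact binomial test, beside 11.9% of all detected genes, and 0 by edgeR's exact test with an estimated dispersion, beside 2.52%. An unadjusted p under 0.05 was reached by 7 of the 8, beside 58.6% of all detected genes, and with so few genes nothing is read from these counts. Their median log2 ratio was 0.13, beside -0.030 over all detected genes.

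**Figure D5:**
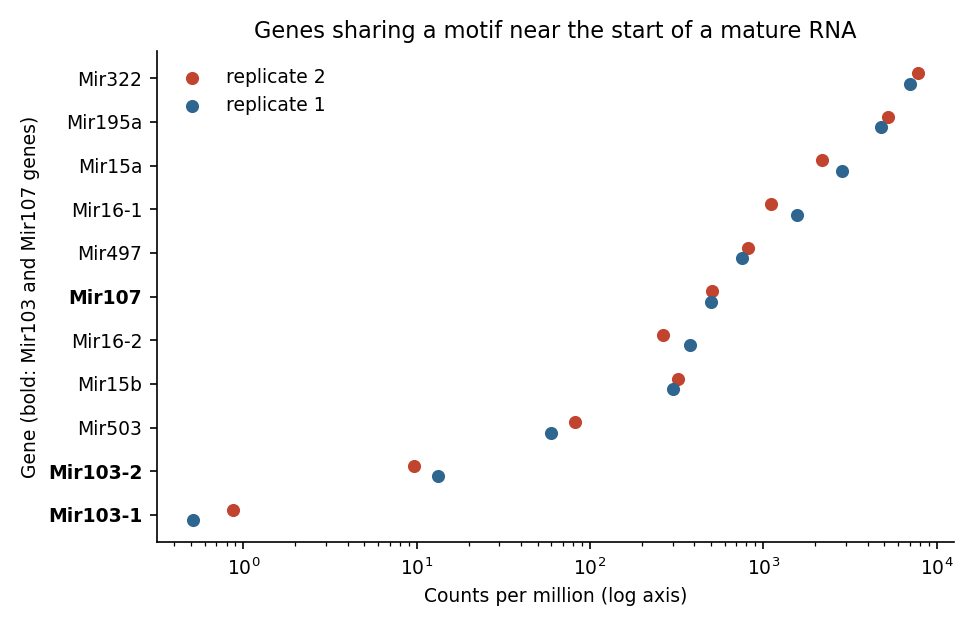
Points are CPM on a log axis in replicate 2 (red) and replicate 1 (blue) for each gene of the group with a count, in order of mean CPM, with the Mir103 and Mir107 genes in bold. Mir322 and Mir195a lead, Mir107 lies mid-list near 505 CPM, and Mir103-2 and Mir103-1 are the lowest, all by counts placed at 1 position.

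Mir16-1 and Mir16-2 are the other genes of this group that make 1 mature RNA from different places. Reads of miR-16-5p have to reach 24 nt to tell the genes apart, against a mature length of 22 nt, and reads of the opposite arm 8 nt. Counts of Mir16-1 were 2535 in replicate 2 and 3062 in replicate 1, and Mir16-2 had 604 and 733. The arm these counts came from is not given in the files. Of the 278 detected genes, 232 matched the RefSeq table by symbol and had a hairpin there, and 33 of these have such a copied mature RNA. Mir103-2 was at position 31 of those 33 by mean CPM, whose levels ran from 4.96 to 4985 CPM around a median of 115 CPM. Mir107, with no mature RNA copied whole, was at position 61 of the other 199 genes, whose median was 148 CPM. Its 3p reads still have to reach 22 nt to be told from those of the Mir103 genes.

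Other microRNAs known from studies of insulin action and glucose handling were also read from a list of 12 genes, which was chosen with earlier results of these data known. Of these, 9 were detected, and 2 were called, both lower in replicate 2, beside 9.35% of all detected genes called lower there, and 2 genes are too few for a statement on the list. Mir143, abundant in smooth muscle and described in insulin resistance, was at 94370 CPM in replicate 2, against 196175 CPM in replicate 1. Mir223, of myeloid cells, had 223 and 658 CPM. Mir126a, of endothelium, and Mir378a, from an intron of the coactivator gene Ppargc1b, the other members among the 3 most abundant, had means of 138867 ± 25437 and 102710 ± 16100 CPM (SD, n = 2 each). The median log2 ratio of the detected genes was -0.025, beside -0.030 over all detected genes. Both calls were lost with edgeR's exact test at the estimated dispersion, which takes the differences under test as spread. The call of Mir143, at a log2 ratio of -1.02, was also lost with DESeq2 size factors, at -0.99. It was lost too with edgeR's exact test at an assumed coefficient of variation of 0.2 (adjusted p = 0.141). Mir33, known from cholesterol handling, had 10 counts in replicate 2 and 9 in replicate 1, the islet microRNA Mir375 had 7 and 9, and Mir802, known from liver, had 0 and 1, so all 3 missed the minimum.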

How the data were processed

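The 2 small RNA libraries from gastrocnemius form 1 group. The authors deposited unnormalized read counts for each microRNA gene, for either strand, the own strand and the opposite strand, on mm10 with GENCODE release M21, per the deposited notes. Neither an aligner nor a counter is named in the sources used here. Rows for unmapped, multiply aligned and ambiguous reads and reads outside genes, 84.1% of reads in replicate 2 and 79.3% in replicate 1, name no gene and stayed out of totals and tests.

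CPM were computed over own-strand gene counts. The library comparison conditioned on the total of a gene in an exact binomial test, with library sizes scaled by TMM (edgeR 4.0.16, R 4.3.3), for genes with at least 10 counts in each library, with Benjamini-Hochberg adjustment over all of them and a prior of 0.5 counts in log2 ratios. The quasi-likelihood test needs a second group. The exact binomial and Fisher tests were run on simulated counts with counting error alone, which does not check them where libraries spread more than that. The tests of edgeR were not simulated. Alternatives changed scaling (DESeq2 1.42.0), minimum counts, fold minimum, strand, denominator and dispersion. Shared sequence was searched in RefSeq hairpins, and percent identity is from a global alignment (Biopython 1.88). Other software was scipy 1.17.1, pandas 2.3.3, numpy 2.4.6 and matplotlib 3.10.9 under Python 3.11.15. The genes named beside the members are the 3 nearest in log2(CPM + 1) and the 3 most abundant of a list, and the plot of the group of miR-15 and miR-107 shows its genes with a count. Mir16-1, Mir16-2, Mir497, Mir503, Mir195b, Mir208b, Mir223, Mir33, Mir375 and Mir802 were named after their values were seen. The members and lists were chosen with earlier results of these data known.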

Additional observations from a re-analysis of the deposited data

Results flagged for a closer look

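Reads outside the counts used here are named because they exceed the level of 3 counts and no comparison uses them. Multiply aligned reads were 72.3% of the reads of replicate 2 and 70.1% of those of replicate 1. They outnumbered the counts of the 3 genes 8746-fold and 6548-fold. Reads placed at 1 position outside any microRNA gene were 1.90% in replicate 2 and 1.73% in replicate 1. The part of miR-103 or miR-107 in either was not tested.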

How the results depend on the processing

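The levels depend on the denominator, as its construction implies. Over the smaller total of either strand, the mean levels were 692 CPM for Mir107, 15.6 CPM for Mir103-2 and 0.959 CPM for Mir103-1, and the summed share was 0.0709%. Over all reads listed they were 92.6, 2.15 and 0.123 on the same scale, and 0.00949%. With 1 library left out, the levels ran from 503 to 508 CPM for Mir107, from 9.60 to 13.3 CPM for Mir103-2 and from 0.513 to 0.873 CPM for Mir103-1, and the summed share from 0.0516% to 0.0519%. Within the 3 genes, the share of Mir107 ran from 97.3% to 98.0%, that of Mir103-2 from 1.85% to 2.58% and that of Mir103-1 from 0.0993% to 0.168%.

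In the library comparison, 33 genes were called, against 18 with at least 50 counts in each library (207 genes tested), 154 with no fold minimum and 7 with edgeR's exact test at the estimated dispersion. The other settings called from 22 to 48 genes, with 48 where no count minimum was set. Mir107 was not called and stayed above 0 under all 8 alternatives, with log2 ratios from 0.016 to 0.080 and adjusted p from 0.280 to 1. Mir103-2 was not called and stayed below 0 under the 7 that tested it, with adjusted p from 0.404 to 1, and at the minimum of 50 counts it was left out. With no count minimum, Mir103-1 was not called (adjusted p = 1). No paired analysis was possible because there is 1 group, and the comparison cannot be run with a library left out. The counts of Mir103-2 and Mir103-1 limit what can be said of them at this depth.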
